A study of Canis lupus familiaris with 6 samples.

Results

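The S100 calcium-binding protein genes were examined in 3 canine mammary tumor cell lines grown with or without myeloid-derived suppressor cells (MDSCs). Of 10 S100 symbols asked for, 7 were present as gene names of the array, S100A4, S100A6, S100A8, S100A9, S100A10, S100A13 and S100P, with 10 of the 43603 probes that are not controls, and all 10 passed the intensity filter. S100A1, S100A11 and S100A12 were not found by gene name. S100A11 was found as LOC475852 with 2 probes and S100A12 through the description of 1 probe. These 3 probes were added after the values of the others had been seen, so they are counted apart.

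The lines were P114, from an anaplastic cancer, CMT-U27, from a simple carcinoma, and CMT-U309, from a spindle cell tumor. Cells of each line were grown alone (monoculture) or beneath a transwell insert with blood MDSCs of healthy dogs (co-culture), for 48 h according to the methods and at least 72 h according to the sample labels. Co-culture and monoculture RNA of a line were labelled with Cy5 and Cy3, hybridized together to a 2-colour canine array and hybridized again with the dyes exchanged, which gave 6 arrays and 12 channels. The 2 arrays of a line carried the same pair of RNA samples and counted as 1 replicate, so n was 3 lines for co-culture over monoculture. The difference between lines rested on 2 RNA samples per line, and each line lay on a slide of its own, so line and slide cannot be told apart. A single line has no replicate of its own, and p-values measure the spread between these samples only.

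S100 proteins are small EF-hand proteins that mostly act as dimers and change shape on binding calcium. S100A8 and S100A9 form calprotectin, which is abundant in neutrophils and monocytes, and S100A12 is a granulocyte protein; once released, they signal through the receptors TLR4 and RAGE (gene AGER). The others act mainly inside cells on partner proteins, such as non-muscle myosin for S100A4, annexins for S100A10 and S100A11, and ezrin for S100P.

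The myeloid-type genes lie at one end of a cluster of S100 genes on chromosome 7. On the genome build of the array (canFam2), the S100A8 probe was at chr7:46518533-46518592 and the S100A12 probe at chr7:46532382-46532441, both on the plus strand. The S100A9 probes were at chr7:46544282-46544341 and chr7:46544312-46544371 on the minus strand. Their 60-base sequences are shown because the co-culture results turn on these 4 probes. Each has 1 reading frame without a stop codon and none holds the polyadenylation signal AATAAA. In capitals is the run of 30 bases that both S100A9 probes share.
S100A8: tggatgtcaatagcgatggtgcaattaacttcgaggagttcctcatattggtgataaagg
S100A12: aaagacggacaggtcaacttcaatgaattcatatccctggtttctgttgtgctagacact
S100A9, first probe: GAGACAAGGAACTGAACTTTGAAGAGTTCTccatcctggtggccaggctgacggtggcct
S100A9, second probe: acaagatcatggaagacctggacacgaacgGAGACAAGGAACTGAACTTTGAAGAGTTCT
Between probes of different S100 genes the longest shared run was 10 bases. Whether such a probe also binds RNA of a related gene was not tested.

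For S100A4, S100A8, S100A9, S100A12 and S100P, CMT-U27 differed from the other lines far more than the culture conditions differed. S100A13 did not follow this, with line means spanning 0.22 log2 units and a CMT-U27 co-culture log2 ratio of 0.41. CMT-U27 had the highest S100A8, S100A9, S100A12 and S100P signal and by far the lowest S100A4 signal, while S100A6, S100A10 and S100A11 differed by about 2-fold or less and S100A13 did not pass the F test. In limma, 6 of the 7 genes passed a moderated F test over the lines at a Benjamini-Hochberg adjusted p under 0.05, against 55.1% of the 40874 probes tested, and with S100A11 and S100A12 it was 8 of 9. Against P114, CMT-U27 was higher for 4 of the 7 genes (21.6% of all probes) and lower for 1 (19.7%). Against CMT-U309 it was higher for 5 (27.1%) and lower for 1 (19.6%), and P114 was higher than CMT-U309 for 3 (18%). All 4 channels of CMT-U27 lay above the other 8 channels for 4 of the 7 genes, against 16.3% of probes, and below them for 1, against 10.2%. Levels are log2 scaled signals of 1 probe per gene, the brightest, and are compared only between samples for the same probe.

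S100A8, a subunit of calprotectin, had log2 signals of 8.52 and 9.18 in P114 monoculture, 12.58 and 12.69 in CMT-U27 monoculture and 6.69 and 6.70 in CMT-U309 monoculture. In co-culture they were 8.66 and 8.64 in P114, 13.46 and 13.51 in CMT-U27, and 6.64 and 5.97 in CMT-U309. No channel of one line overlapped another line. The mean in CMT-U27 was 19.8-fold that in P114 (log2 difference 4.31 ± 0.26 SE, limma adjusted p = 6.42e-07) and 94.3-fold that in CMT-U309 (6.56 ± 0.26, adjusted p = 2.74e-08). With normexp, a background correction that adds an offset, these log2 differences were 3.66 and 4.83.

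S100A9, its partner, had monoculture signals of 4.69 and 4.96 in P114, 8.59 and 8.67 in CMT-U27, and 4.75 and 4.81 in CMT-U309. In co-culture its signals were 4.66 and 3.61 in P114, 9.43 and 9.43 in CMT-U27, and 4.78 and 2.96 in CMT-U309. The spots were well above background, as flagged by the scanner software, in all 4 CMT-U27 channels but in 2 of 4 P114 and 3 of 4 CMT-U309 channels, so the low end was poorly measured. CMT-U27 was 23.5-fold above P114 (4.55 ± 0.37 SE, limma adjusted p = 5.90e-06) and 26.1-fold above CMT-U309, and with normexp these log2 differences were 1.94 and 1.98. The second S100A9 probe, not well above background in P114, was at least 5.61-fold higher in CMT-U27 than in P114.

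S100A12, a granulocyte protein and RAGE ligand, was measured between 9.31 and 10.43 in the 4 CMT-U27 channels, between 5.49 and 6.09 in P114 and between 4.79 and 5.38 in CMT-U309. The line order was that of S100A8, and its spots were well above background in 3 of 4 channels in each of the lower lines. CMT-U27 was 16.4-fold above P114 (4.03 ± 0.23 SE, limma adjusted p = 4.20e-07) and 26.6-fold above CMT-U309 (4.73 ± 0.23, adjusted p = 1.19e-07).

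S100P, an ezrin-binding protein named for the placenta and frequent in carcinomas, shared this order and is counted here among the other genes. Its probe lies at chr3:61627069-61627128, away from the cluster. Its signals were 12.09 and 11.75 in CMT-U27 monoculture, 8.38 and 8.03 in P114 and 6.50 and 5.38 in CMT-U309. In co-culture they were 11.74 and 12.14 in CMT-U27, 8.27 and 8.88 in P114, and 6.27 and 4.32 in CMT-U309, so the lines did not overlap. CMT-U27 was 11.6-fold above P114 (3.54 ± 0.22 SE, limma adjusted p = 9.52e-07) and 79.5-fold above CMT-U309 (6.31 ± 0.22, adjusted p = 1.32e-08). In CMT-U309 it was well above background in 3 of 4 channels, and the log2 difference was 7.08 without CMT-U309 replicate 1, 5.55 without CMT-U309 replicate 2 and 4.04 with normexp.

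S100A4, which binds non-muscle myosin and is known as a mesenchymal, motility-associated protein, ran the opposite way. Its signals in monoculture were 16.44 and 16.05 in P114, 10.93 and 10.63 in CMT-U27, and 16.27 and 15.99 in CMT-U309. In co-culture they were 16.59 and 16.50 in P114, 10.86 and 10.83 in CMT-U27, and 15.87 and 15.74 in CMT-U309. The 4 CMT-U27 channels were all below the other 8, whereas P114 and CMT-U309 overlapped. S100A4 was 47.96-fold lower in CMT-U27 than in P114 (log2 difference -5.58 ± 0.17 SE, limma adjusted p = 5.66e-09) and 35.6-fold lower than in CMT-U309 (-5.15 ± 0.17, adjusted p = 7.74e-09). P114 against CMT-U309 gave 0.43 ± 0.17 (adjusted p = 0.0841), which passed with the replicate number as a block (adjusted p = 0.0184) and changed sign without scaling of the channels (-0.35).

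**Figure D1:**
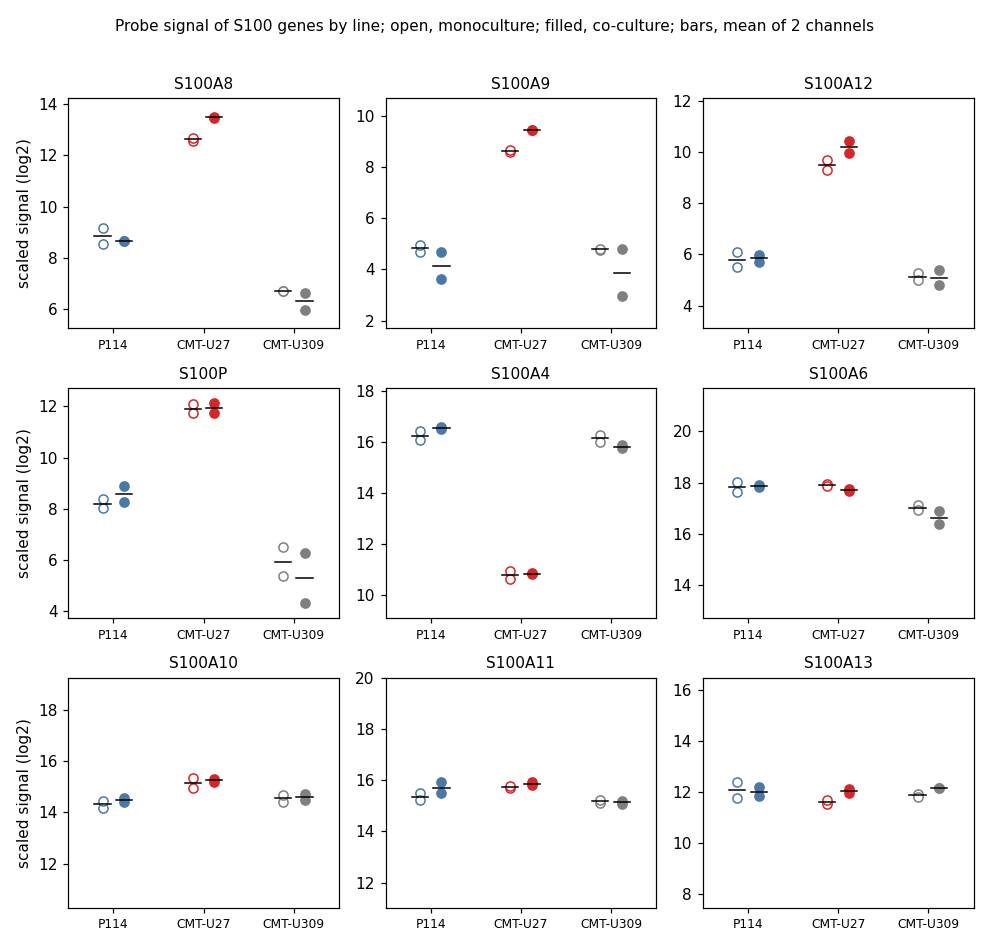
Scaled signal (log2) of the brightest probe of 9 S100 genes in P114, CMT-U27 and CMT-U309; open points are monoculture channels, filled points co-culture channels and bars the mean of 2 channels, and each panel spans the same range of log2 units on its own axis. S100A8, S100A9, S100A12 and S100P sit highest and S100A4 lowest in CMT-U27, while S100A13 overlaps in all 3 lines.

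The remaining genes were bright in every line and differed little. S100A6, or calcyclin, which binds CACYBP, averaged 17.85 in P114, 16.83 in CMT-U309 and 17.81 in CMT-U27. P114 and CMT-U27 overlapped, and both lay about 1 log2 unit above CMT-U309 (1.02 ± 0.17 SE for P114, limma adjusted p = 0.00164, and 0.98 ± 0.17 for CMT-U27, adjusted p = 0.00105); the call for P114 was lost without scaling of the channels (0.24, adjusted p = 0.291). The 3 S100A6 probes gave CMT-U27 minus CMT-U309 differences of 0.98, 0.94 and 0.96, but the third, which spans 389 bases of the genome, put CMT-U27 0.48 above P114 where the others gave -0.04 and 0.03.

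S100A10, which with ANXA2 forms a complex that binds plasminogen and its activator, averaged 15.21 in CMT-U27, 14.40 in P114 and 14.57 in CMT-U309. CMT-U27 was 0.81 ± 0.14 SE above P114 (limma adjusted p = 0.000969). It was 0.64 ± 0.14 above CMT-U309 (adjusted p = 0.00345), a call lost without scaling (0.33, adjusted p = 0.0767) and with normexp (0.16, adjusted p = 0.428). P114 minus CMT-U309, -0.17 with the main processing, passed with both of these settings (-0.94, limma adjusted p = 0.000366, and -0.64, adjusted p = 0.0082). S100A11, an annexin A1 partner whose probes lie near S100A10 on chromosome 17, averaged 15.54, 15.81 and 15.16 in P114, CMT-U27 and CMT-U309. Its first probe passed between CMT-U27 and CMT-U309 (0.65 ± 0.15, limma adjusted p = 0.00613), and the F test of its second probe did not pass (adjusted p = 0.0827). S100A13, which takes part in the release of FGF1, averaged 12.05, 11.83 and 12.02 (F adjusted p = 0.395 in limma). Its CMT-U27 minus CMT-U309 difference, -0.19, passed without scaling (-0.50, limma adjusted p = 0.0195) and with 75th percentile scaling (-0.40, adjusted p = 0.0497).

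None of the 7 genes was called for co-culture with MDSCs over the 3 lines. In limma, 0 of the 7 genes were past 2-fold with an unadjusted p under 0.05, the limits that the methods set, against 1.22% of all probes (1.03% higher and 0.191% lower). By their brightest probes 0 of 7 had an unadjusted p under 0.05, against 9.94% of probes, and after adjustment no probe on the array passed. The methods' t-test also called 0 of the 7. With n of 3 lines and 7 genes, counts of 0 lie near the shares over all probes. They do not show that these genes were unmoved. The mean log2 ratios over the 3 lines ran from -0.27 ± 0.30 SE for S100A9 (limma adjusted p = 0.738) to 0.21 ± 0.12 for S100A13 (adjusted p = 0.544). S100A4 was at 0.01 ± 0.14, S100A8 at 0.09 ± 0.21, S100A10 at 0.09 ± 0.11, S100P at -0.08 ± 0.18 and S100A6 at -0.19 ± 0.14. The dye-swap arrays of a line, turned to the same direction, correlated across all probes at -0.39 for P114, -0.09 for CMT-U309 and 0.26 for CMT-U27, so single-array ratios differ much with the dye and are weakest in P114.

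In CMT-U27 the myeloid-type genes had higher ratios, on both arrays. S100A8 had a co-culture over monoculture log2 ratio of 0.89 with co-culture RNA in Cy5 and 0.82 with it in Cy3. S100A9 had 0.84 and 0.76, and its second probe 0.59 and 0.80. The 2 dye orientations thus lay close together for both calprotectin genes, which was not so for S100A12 (0.28 and 1.13). The line means were 0.85, 0.80 and 0.70, and all 3 genes were higher on both arrays with a mean over 1.5-fold, a rule that 14.6% of all probes met in this line. None of the other 6 genes met it. Among 7 further S100 family genes, looked at apart from these, 1 met it. This was S100A16, with 1.14 and 1.74 (mean 1.44), so the myeloid-type genes were not alone in meeting the rule. With no replicate of CMT-U27 these values carry no test. The means of S100A8, S100A9 and S100A12 were as large with the deposited log10 ratios (0.84, 0.79 and 0.69). With normexp those of S100A9 and S100A12 were smaller (0.89, 0.64 and 0.49 for the 3 genes).

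P114 and CMT-U309 did not share this. For S100A8 the ratios were 0.14 and -0.54 in P114 and -0.05 and -0.73 in CMT-U309. For S100A9 they were -0.03 and -1.35 in P114 and 0.03 and -1.85 in CMT-U309. In P114 the mean of S100A9 was past 1.5-fold lower with both arrays below 0, as for 4.96% of probes. The strongly negative values both came from the arrays with co-culture RNA in Cy3, where its co-culture signal was lowest. The second S100A9 probe gave -1.78 and 1.62 in P114 and 2.25 on the 1 CMT-U309 array with a usable spot, the other being flagged as an outlier. Its mean over the lines, 0.95 ± 0.37 SE (limma unadjusted p = 0.0278, adjusted p = 0.498), was under 2-fold and opposite in sign to that of the first probe, with which it shares 30 bases.

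**Figure D2:**
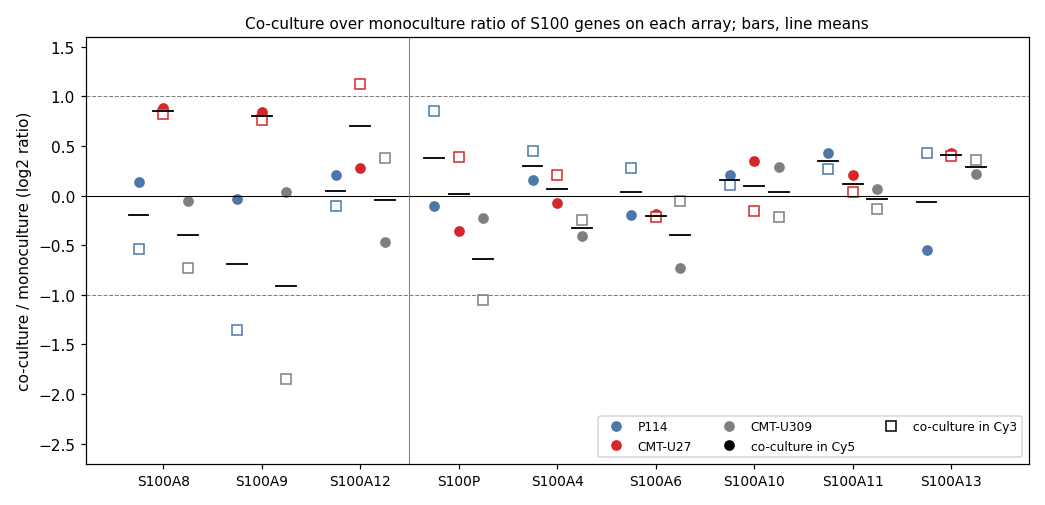
Co-culture over monoculture log2 ratio of 9 S100 genes on each of the 6 arrays, by line (colour) and dye of the co-culture RNA (filled circle Cy5, open square Cy3); bars are line means, dashed lines mark 2-fold, and the vertical line separates the myeloid-type genes at the left. In CMT-U27 S100A8 and S100A9 lie between 0.76 and 0.89 on both arrays, while S100A9 spreads from -1.85 to 0.03 in the other lines.

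The median ratio of S100A8 and S100A9 in CMT-U27 was 0.83, against 0.07 for the 5 other genes by name and 0.00 for all probes. With S100A12 and S100A11 included the medians were 0.80 and 0.08. In P114 the 2 genes had a median of -0.45 and the others 0.16, and in CMT-U309 the values were -0.65 and -0.33. Over all lines the medians were -0.09 and 0.01, and the difference, -0.10, was smaller than its SD over the 3 lines, 0.72. It ran from -0.54 without CMT-U27 to 0.22 without P114.

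S100A10 had line means of 0.09 in CMT-U27, 0.16 in P114 and 0.03 in CMT-U309. S100A4 was higher on both P114 arrays, 0.16 and 0.45, and lower on both CMT-U309 arrays, -0.40 and -0.25. S100A13 was higher on 5 of 6 arrays, with -0.55 and 0.42 in P114, 0.42 and 0.40 on the CMT-U27 arrays and 0.22 and 0.36 on those of CMT-U309. S100P fell on both CMT-U309 arrays, -0.23 and -1.06, with a mean past 1.5-fold (6.09% of probes), and had no shared sign in P114 (-0.11 and 0.86) or CMT-U27 (-0.35 and 0.39). S100A6 was lower on both CMT-U27 arrays (-0.19 and -0.21) and both CMT-U309 arrays (-0.73 and -0.05), and S100A11 ran from -0.13 to 0.43 over the 6 arrays.

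**Figure D3:**
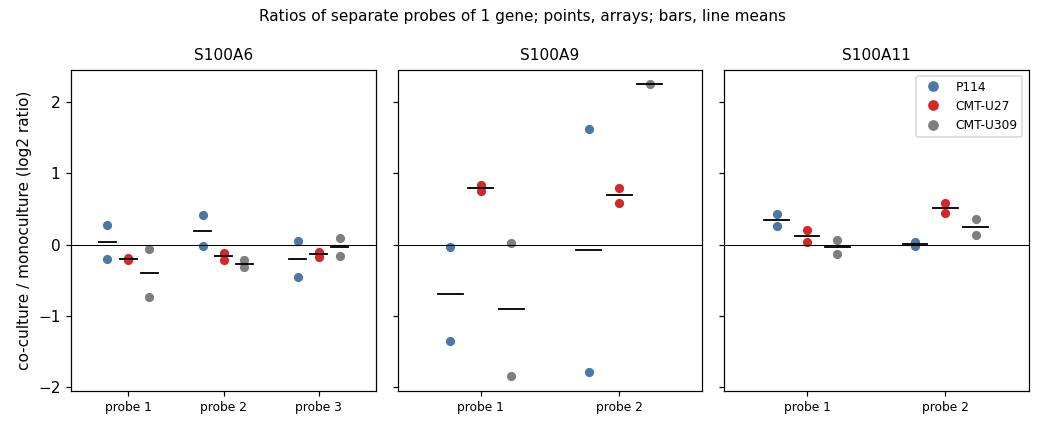
Co-culture over monoculture log2 ratio of each probe of S100A6, S100A9 and S100A11; points are arrays, bars line means, and colours the lines, with 1 array for the second S100A9 probe in CMT-U309. The S100A9 probes lie together in CMT-U27, between 0.59 and 0.84, and far apart in CMT-U309.

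In bulk RNA, fewer cells of a type and less RNA per cell cannot be told apart. The MDSCs were held apart in the insert, but because such cells express S100A8, S100A9 and S100A12, myeloid markers were read beside them. Of 18 markers 16 were found. ITGAM (CD11b), LYZ and SPI1 were well above background in 0 of 12 channels, and PTPRC (CD45) and CSF1R in 0 of the 4 CMT-U27 channels. In limma 0 of the 16 passed the co-culture thresholds (1.22% of all probes), and 2 had an unadjusted p under 0.05 (9.94%). In CMT-U27 the summed linear signal of the list was between 6022 and 6337 in monoculture and between 7582 and 7618 in co-culture. LCP1, at a log2 level of 12.39, and CD68, at 10.20, were the brightest. The CMT-U27 sum therefore follows mainly these genes and not the list at large. The median log2 ratio of the list in CMT-U27 was 0.23, and single markers there ran both ways, from TYROBP (-1.31, well above background in 2 of 4 channels) to LYZ (1.23, in 0 of 4). Among markers well above background in all 4 CMT-U27 channels, LCP1, CD68 and ITGB2 were higher on both arrays of that line. Their means were 0.31, 0.36 and 0.10. CYBB, also among them, was lower on both, at -0.36 and -0.22. In P114 the sums were 1359 to 1385 and 1290 to 1640, and in CMT-U309 2260 to 2585 and 2516 to 2650. The part of this list in the CMT-U27 ratios was not tested.

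The receptors of the released proteins were all on the array. In limma 0 of 4 were called in co-culture (1.22% of all probes), and 0 had an unadjusted p under 0.05 (9.94%). TLR4, the calprotectin receptor, was well above background only in the 4 CMT-U27 channels, with a log2 level of 8.14 there against 2.32 in P114 and 2.26 in CMT-U309. BSG (CD147, a S100A9 receptor) was lower in CMT-U27 than in P114 (-1.05 ± 0.26 SE, limma adjusted p = 0.00912), and its co-culture ratios in CMT-U27 were 0.64 and 0.82, with 0.30 and 0.67 in CMT-U309 and -0.65 and -0.51 in P114. AGER did not pass between lines (F adjusted p = 0.166), and CD36 was well above background in 0 of 12 channels. TLR4 and BSG were the 2 of 4 that passed the F test, near the share of 55.1% of all probes.

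Of 14 intracellular partners 13 were found, and 10 passed the F test between lines, against 55.1% of all probes. In limma 0 were called in co-culture (1.22% of all probes), and 2, MYH9 and PLAT, had an unadjusted p under 0.05 (9.94%). MYH9, the myosin heavy chain that S100A4 binds, was lowest in the same line as S100A4, at 11.99 in CMT-U27, 14.29 in P114 and 14.61 in CMT-U309 (CMT-U27 minus P114 -2.30 ± 0.14 SE, limma adjusted p = 9.64e-07). Its co-culture ratio was 0.31 ± 0.12 (unadjusted p = 0.0262 in limma, adjusted p = 0.498). ANXA6 was also lowest in CMT-U27, at 3.48 against 7.63 and 9.31, where it was well above background in 1 of 4 channels. ANXA5 was at 11.69 in CMT-U27, 13.16 in P114 and 13.78 in CMT-U309.

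ANXA2, the partner of S100A10, was at 16.16 in CMT-U27, 15.99 in P114 and 15.66 in CMT-U309 and did not pass the F test (adjusted p = 0.0932 in limma). PLAT, the tissue plasminogen activator that the ANXA2 and S100A10 complex binds, was lower in CMT-U309, at 8.82 against 10.60 in P114 and 10.67 in CMT-U27. Chosen after its values were seen, PLAT is also named for co-culture, where its ratio was 0.37, 0.41 and 0.37 in the 3 lines and above 0 on all 6 arrays, as for 2.55% of probes (mean 0.38 ± 0.11 SE, unadjusted p = 0.00621 in limma, adjusted p = 0.498), under the 2-fold threshold. SUGT1, a S100A6 partner, was lower in CMT-U309, at 8.81 against 10.39 in P114 and 10.51 in CMT-U27.

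The S100 cluster did not move as a block between lines. Its probes for 11 genes lay within 125.3 kb, ordered S100A13, S100A14, S100A16, S100A2, S100A3, S100A4, S100A5, S100A6, S100A8, S100A12 and S100A9, and the dog reference table gave the same order. The myeloid-type genes at one end were higher in CMT-U27, and so, near the other end, were S100A14, at 11.89 in CMT-U27, 7.54 in P114 and 3.58 in CMT-U309, and S100A2, at 12.10, 8.74 and 7.94. S100A4, between them, was lower by 5.58 and 5.15 on the log2 scale. Its neighbours S100A3 and S100A5 differed from the other lines by less than 1 log2 unit. S100A16 was as high in P114 (10.04) as in CMT-U27 (9.92) and low in CMT-U309 (4.89), and with MDSCs its ratio was 1.14 and 1.74 on the CMT-U27 arrays and -1.07 and -0.38 in P114. Of 9 further family symbols 7 were found, and 5 of them passed the F test (55.1% of all probes). S100B and S100G were each well above background in 1 of 12 channels.

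**Figure D4:**
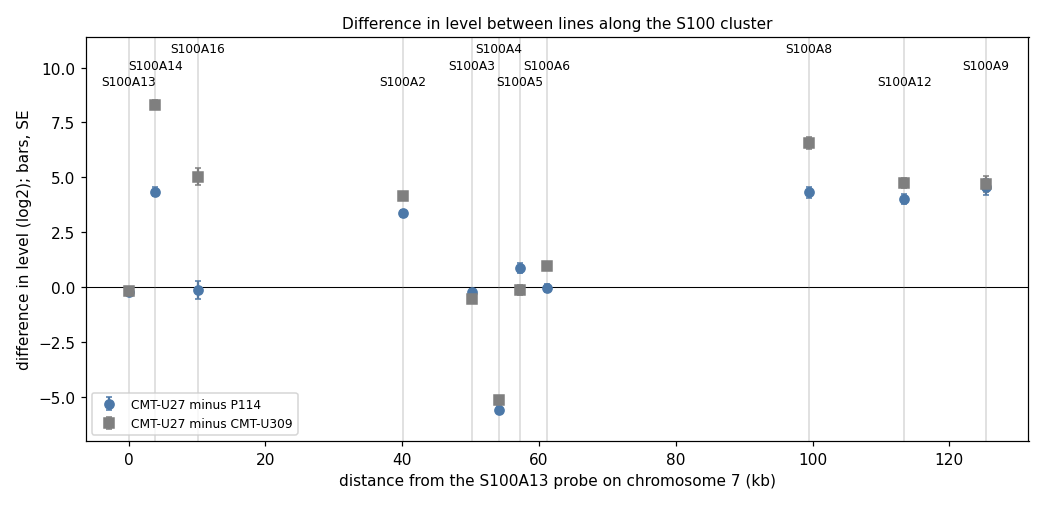
Difference in log2 level of CMT-U27 from P114 (circles) and from CMT-U309 (squares) for 11 S100 genes against the distance of their probes from the S100A13 probe in kb, with SE bars. S100A8, S100A12 and S100A9 at the right and S100A2 and S100A14 at the left lie above 3 in both contrasts, and S100A4 lies below -5.

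The lineage markers of the lines ran beside these levels. Of 6 epithelial markers found, 5 were higher in CMT-U27 than in P114 (21.6% of all probes) and than in CMT-U309 (27.1%). Among them were EPCAM, at 15.42 in CMT-U27 against 9.18 in P114 and 6.68 in CMT-U309, and KRT19, at 16.03 against 9.67 and 4.70. KRT14 was lowest in CMT-U27, at 11.05 against 11.86 and 12.58. All 8 mesenchymal markers found were lower in CMT-U27 than in P114 (19.7% of all probes) and 7 of 8 lower than in CMT-U309 (19.6%). Their part in the S100 levels was not tested.

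Profiles over the 6 RNA samples were compared with those of 7606 genes well above background in all channels. The profile most like S100A4 was that of VIM (vimentin, Pearson r = 0.9991), followed by OCEL1 (0.9986). VIM was at 10.19 in CMT-U27, 16.86 in P114 and 16.23 in CMT-U309. For S100A8 the likest were CCDC85B (0.9993) and CYFIP2 (0.9986), and for S100A6 SCAP (0.9978) and GAS8 (0.9959). Among the S100 genes, S100A8 was most like S100P (0.9878), S100A9 most like S100A12 (0.9832), and S100A4 ran against S100A9 (-0.9754). These are descriptions over 6 samples of 3 lines, which share slides and channel scaling, and carry no p.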

How the data were processed

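Total RNA of 3 canine mammary tumor lines was hybridized to 6 Agilent 4x44K canine arrays, 2 per line as a dye-swap. The authors deposited the scanner output, with processed signal intensity per dye and flags, from Feature Extraction (10.10.1.1 in the file headers, 10.7.3.1 in the submitters' processing notes), which subtracts background and adjusts the dyes. A deposited table of log10 ratios held the same ratios turned to co-culture over monoculture (largest difference 4.997e-06). Its columns have a median of 0.

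Each channel's processed signal was scaled to a common median over the spots that are not controls. Spots flagged as outliers were then left out, and a probe was kept if its highest intensity exceeded 10. Log2 ratios of a probe's spots were averaged, as were the 2 arrays of a line, and limma 3.58.1 (R 4.3.3, eBayes with a trend in mean intensity) compared the mean of 3 lines with 0. For levels, each RNA sample was the mean of its 2 channels, fitted as line plus culture condition. Adjustment was by Benjamini-Hochberg over 40874 probes. Both tests were tested on simulated data. Sequences were read with pandas 2.3.3 in Python 3.11.15 and plots drawn with matplotlib 3.10.9.

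Well above background, by the scanner software's flag, were 53.0% to 81.0% of spots in a channel. The number of arrays limits the precision. Deviations of same-numbered arrays correlated across lines at 0.36, 0.58 and 0.48 in the ratio; the number marks the dye, so a fit with a dye term was an alternative. Others were normexp with loess, no scaling, 75th percentile scaling, outlier spots kept, 2 other filters, the methods' t-test, eBayes without a trend, the median over probes, and each line or array left out.

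The members and lists were chosen with earlier results of these data known. Named are all members by their brightest probe, receptors and partners called with the largest difference, at most 4 per list and comparison, markers a result turns on, and the 2 likest genes of a member well above background in all channels and spanning over 1 log2 unit. Coordinates are those of the files on canFam2. Gene order came from RefSeq's UU_Cfam_GSD_1.0 table. The values of 1 marker gene are not reported here.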

Additional observations from a re-analysis of the deposited data

Results flagged for a closer look

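In 3 genes both arrays of one line moved opposite to both arrays of another, with the difference not tested. S100A4 had a mean log2 co-culture over monoculture ratio of 0.30 in P114 and -0.33 in CMT-U309. S100A8 had 0.85 in CMT-U27 and -0.39 in CMT-U309. S100A9 had 0.80 in CMT-U27 and -0.69 in P114. The 2 arrays of a line carry the same RNA samples, so each of these is 1 pair of samples per line.

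For S100A13 1 of the 6 arrays stood apart, P114 replicate 1, at -0.55, with a gap to the nearest array that took 0.785 of the whole range. Chance gives about 1 such array in 20 groups, and 9 genes were examined.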

How the results depend on the processing

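The count of members called in co-culture stayed at 0 and that of members differing between lines at 6 (7 without scaling, 8 with S100A11 and S100A12, added after seeing the data) under every alternative run, with 0 and 6 for each array left out. The difference of medians between myeloid-type and other genes ran from -0.10 to 0.11, and from -0.54 to 0.22 with a line or array left out. The replicate block left 0 and 6, and changed 1 call between single lines, S100A4 in P114 minus CMT-U309 (0.43). The fit of 6 arrays with no replicate block gave 0.

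Signs that turned were those of small differences. For co-culture they were S100A6 (0.0514), S100A9 (0.20) and S100P (0.0862) with normexp, and S100A4 (-0.0102) with the deposited ratios or without scaling. For levels, with normexp, S100A6 in CMT-U27 minus P114 became 0.14 and S100A4 in P114 minus CMT-U309 -0.30. Without scaling, CMT-U27 minus P114 became 0.43 for S100A6 and 0.25 for S100A13, and P114 minus CMT-U309 became -0.35 for S100A4, -0.62 for S100A9 and -0.74 for S100A13, the last with an adjusted p of 0.00231 in limma. S100A13 in the same contrast was -0.0411 at the 75th percentile, and S100A6 in CMT-U27 minus P114 was 0.0281 over the median of probes. The cause was not tested.

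With a line or array left out, co-culture ratios ran from -0.13 to 0.18 for S100A4, -0.30 to 0.33 for S100A8, -0.80 to 0.0538 for S100A9 and -0.31 to 0.20 for S100P, and levels from -0.11 to 0.0375 for S100A6 in CMT-U27 minus P114, and in P114 minus CMT-U309 from -0.29 to 0.59 for S100A9 and -0.044 to 0.11 for S100A13. S100A8 was negative without CMT-U27 (-0.30), without P114 replicate 1 (-0.03) and without CMT-U309 replicate 1 (-0.03). With normexp, P114 minus CMT-U309 was 1.18 for S100A8 (2.25 with the main processing) and 1.25 for S100P (2.77 with the main processing). Both differences were also smaller without scaling and with 75th percentile scaling, though by less than with normexp. The other called level differences of S100A4, S100A8, S100A9 and S100P kept sign and call. Signal over background limits S100A9 and S100A12 in P114 and CMT-U309 and S100P in CMT-U309.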
